A study of Mus musculus with 8 samples.

Results

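The immunity-related GTPases (IRGs) are a family of interferon-inducible GTPases that defend mouse cells against microbes living inside vacuoles. The 7 genes described here, Irgm1, Irgm2, Igtp, Iigp1, Tgtp1, Tgtp2 and Ifi47, were taken by symbol from the 21080 gene symbols of the deposited tables, and each had a row in all 8 samples. RNA-seq was performed on bone marrow-derived macrophages (BMDMs) of C57BL/6 mice, grown from bone marrow in M-CSF. Nudt21-cKO cells carried floxed Nudt21 alleles (Nudt21 fl/fl) and Cre recombinase under the lysozyme M promoter (LysM-Cre), which is active in myeloid cells, and Nudt21 encodes a subunit of the complex that selects polyadenylation sites. WT cells came from sex-matched littermates that also carried LysM-Cre, so both genotypes expressed Cre, and the age of the mice used for RNA-seq is not given in the sources used here. Cells were harvested without stimulation (0 h) or after overnight IFNγ followed by LPS for 4 h. Throughout, 4 h counts the time in LPS only and leaves out the overnight IFNγ. Each of the 4 groups held 2 samples, and each sample pooled BMDMs of 2 mice. The WT samples are numbered 1 and 2 and the Nudt21-cKO samples 3 and 4 at both times.

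IRG proteins fall into a pair of functional groups. The regulatory members Irgm1, Irgm2 and Igtp (also called Irgm3) sit on host endomembranes and hold the others inactive there. The effector members Iigp1 (Irga6), Tgtp1 and Tgtp2 (both Irgb6) and Ifi47 (Irgd) load onto pathogen-containing vacuoles, such as that of Toxoplasma, and help to break them open. In macrophages their transcription is switched on mainly by IFNγ, through promoter elements called gamma-activated sites (GAS) and interferon-stimulated response elements (ISRE), the latter bound by IRF1.

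Of the members, 6 lie on mouse chromosome 11 and Iigp1 lies elsewhere in the genome. In RefSeq coordinates of GRCm38.p6, Irgm1 (chr11:48865245-48871420, minus strand), Tgtp1 (chr11:48985329-48992246, minus), Tgtp2 (chr11:49057196-49064212, minus) and Ifi47 (chr11:49076587-49096987, plus) form a cluster. Igtp (chr11:58199556-58207592, plus) and Irgm2 (chr11:58214977-58222783, plus) are neighbours farther along the chromosome. Entries of the RefSeq promoter set span 250 bases before to 50 after each start. They were read for the 6 members on chromosome 11, and no promoter of Iigp1 was examined here.

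The promoter windows below are shown because some of the members raised by the stimulation (Tgtp1, Tgtp2, Igtp and Irgm2) share a short stretch in them. Both strands of every promoter were searched for a GAS (TTCNNNGAA) and an ISRE core (GAAA and GAAA with any 2 bases between them), and matches are in capitals. All windows are from GRCm38.p6, written 5′ to 3′ on the strand of the gene.
Tgtp1, chr11:48992308-48992337, minus strand: catTTCCAGGAAtcGAAACTGAAAcctacc
Tgtp2, chr11:49064267-49064296, minus strand: catTTCCAGGAAtcGAAACCGAAAcctact
Igtp, chr11:58199508-58199537, plus strand: catTTCTAGGAActGAAACTGAAAgctgtt
Irgm2, chr11:58214899-58214928, plus strand: catTTCCAGGAActGAAACTGAAAgctgtt
Irgm1, chr11:48871424-48871453, minus strand: caaGAAATAGAAACCGAAActgattctcaa

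In Tgtp1, Tgtp2, Igtp and Irgm2 the GAS match began 11 bases upstream of the ISRE match, without overlap. The GAS letters read the same on both strands, so they give no orientation. The GAS match began 88 bases before the start in Tgtp1, 81 in Tgtp2, 45 in Igtp and 75 in Irgm2. Of 32851 RefSeq promoters of this length, 8.30% held a GAS match, 3.44% an ISRE match, 0.454% both, and 5 (0.015%) the arrangement at this spacing. The spacing was read from these members, which supply 4 of the 5 promoters, so that its share describes them and tests nothing. Irgm1 had no GAS match and a pair of ISRE matches that overlap each other, beginning 30 and 24 bases before the start. Ifi47 had neither set of letters in this window. Across the full promoter entries, identity was 72.8% between Irgm2 and Igtp and 67.9% between Tgtp1 and Tgtp2, and from 43.2% to 50.8% for the other pairs. These matches describe sequence and were not measured as binding here.

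Tgtp1 and Tgtp2 are near-identical copies, which bears on every value of either. Their longest protein-coding transcripts in the annotation (2823 and 2810 bases) aligned at 99.3% identity, with 19 positions that were not identical. Of all 150-base stretches of annotated Tgtp2 transcripts, 68.4% occurred unchanged in Tgtp1, and 62.5% of those of Tgtp1 occurred in Tgtp2. For Irgm1, Iigp1 and Ifi47 no 150-base stretch was shared with another member, and for Igtp and Irgm2 0.739% and 0.437% were. Reads from shared stretches can be placed on either copy, so the separate Tgtp1 and Tgtp2 levels are uncertain, and their sum is given beside them. Tgtp1 also shares 223 exonic bases (6.96% of its exonic length) with Gm12185, a neighbouring predicted gene on the same strand, and Igtp shares 162 (8.01%) with Irgm2.

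The tables do not name their unit, and from the methods and the values it was read as the mean read depth over the bases of a gene, on which the comparisons between genes rest. Its total over all genes was between 14950347 and 17954882 per sample. Depth was rescaled to TPM, in which every sample has the same total and the level is per length, so that genes can be compared with each other. Nudt21 itself was 40.5 and 45.6 TPM in the WT samples at 0 h and 9.51 and 9.71 TPM in the Nudt21-cKO samples. At 4 h it was 35.1 and 38.5 TPM in WT and 6.41 and 8.20 TPM in Nudt21-cKO, so mRNA of the gene was reduced and still detected. The loxP sites flank only part of the gene, and depth over the whole gene does not separate the deleted exons from the rest. The paper reports efficient loss of Nudt21 mRNA and protein in Nudt21-cKO BMDMs. Summed TPM of the 8 macrophage markers was between 4066 and 8156, while that of 6 T and NK cell markers did not exceed 0.744 and that of 5 B cell markers did not exceed 9.10. The 8 neutrophil markers summed to between 1126 and 1954 TPM, with S100a8 between 306 and 539 TPM, Ngp between 143 and 327 TPM and Ly6g at or below 0.466 TPM. In bulk RNA, a change in the number of cells of a type and a change in RNA per cell cannot be told apart.

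The level of each member was first compared between unstimulated and stimulated cells, which asks how the family responded to IFNγ/LPS in each genotype. All 7 genes were higher at 4 h. Among the 6 with reads in every sample the rise was smallest in Irgm2 and largest in Tgtp1 and Tgtp2. Iigp1 moved from 0 or near 0 to at least 322 TPM. In the order of expression over all symbols, Tgtp2 moved from rank 10922 to rank 169 in WT cells, and Irgm1 from rank 5048 to rank 257. Both 4 h samples lay above both 0 h samples for the 6 genes with reads in every sample, in each genotype, as they did for 16.8% of all genes tested in WT and 19% in Nudt21-cKO.

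Among the regulatory members, Irgm1, which acts in autophagy and vacuole control, was 30.1 and 28.0 TPM in WT cells at 0 h and 643 and 676 TPM at 4 h. In Nudt21-cKO cells it was 20.6 and 20.7 TPM at 0 h and 634 and 643 TPM at 4 h. The fitted rise was 22.7-fold in WT (log2 fold change 4.51 ± 0.09, SE) and 30.9-fold in Nudt21-cKO (4.95 ± 0.09).

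Irgm2 was 14.2 and 17.4 TPM in WT and 12.3 and 15.9 TPM in Nudt21-cKO cells at 0 h. After IFNγ/LPS it was 142 and 173 TPM in WT and 154 and 151 TPM in Nudt21-cKO cells. Its rise was the smallest of these 6 genes in each genotype, 9.93-fold in WT (3.31 ± 0.19) and 10.9-fold in Nudt21-cKO (3.45 ± 0.19).

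Igtp was 11.3 and 11.5 TPM in WT and 10.02 and 11.5 TPM in Nudt21-cKO cells at 0 h. In stimulated cells it reached 441 TPM in both WT samples, and 366 and 367 TPM in the Nudt21-cKO samples. The rise was 38.7-fold in WT (5.27 ± 0.10) and 34.1-fold in Nudt21-cKO (5.09 ± 0.10).

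Among the effector members, Iigp1 was listed at 0 in both WT samples and in Nudt21-cKO sample 3 at 0 h, and at 0.0316 TPM in Nudt21-cKO sample 4. At 4 h it was 425 and 515 TPM in WT and 322 and 324 TPM in Nudt21-cKO cells. No fold change is given for it against 0 h, because a ratio to a value listed at 0 has no defined size.

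Tgtp1 was 1.69 and 1.31 TPM in WT and 1.16 and 0.941 TPM in Nudt21-cKO cells at 0 h. With stimulation it was 467 and 411 TPM in WT and 694 and 722 TPM in Nudt21-cKO cells, a rise of 293-fold in WT (8.19 ± 0.18) and 671-fold in Nudt21-cKO (9.39 ± 0.18). Its copy Tgtp2 gave the other order between genotypes.

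Tgtp2 was 1.69 and 1.46 TPM in WT and 1.71 and 2.12 TPM in Nudt21-cKO cells at 0 h. At 4 h it was 875 and 818 TPM in WT and 743 and 729 TPM in Nudt21-cKO cells. The rise was 535-fold in WT (9.06 ± 0.15) and 384-fold in Nudt21-cKO (8.59 ± 0.15). For the summed level of both copies the rise was 418-fold in WT (8.71 ± 0.13) and 486-fold in Nudt21-cKO (8.92 ± 0.13).

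Ifi47 was 5.05 and 6.11 TPM in WT and 2.89 and 3.58 TPM in Nudt21-cKO cells at 0 h. At 4 h it was 279 and 292 TPM in WT and 183 and 188 TPM in Nudt21-cKO cells. It rose 51.3-fold in WT (5.68 ± 0.16) and 57.5-fold in Nudt21-cKO (5.84 ± 0.16).

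**Figure D1:**
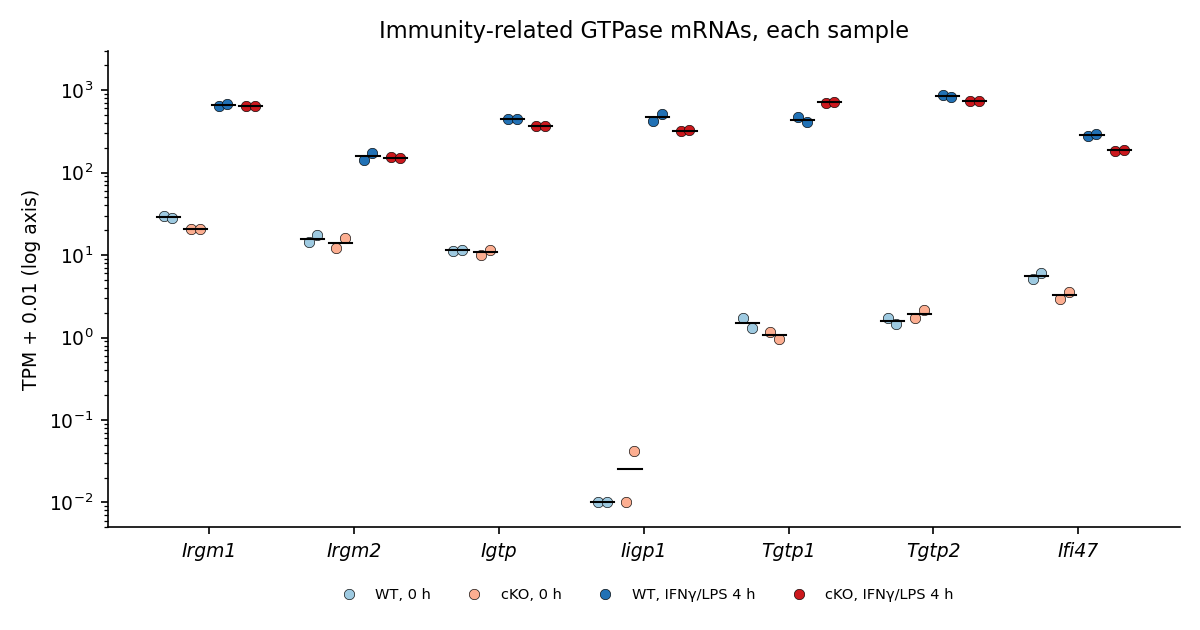
Level of each immunity-related GTPase mRNA (TPM + 0.01, log axis) in the 8 samples. Each point is 1 sample, each bar the mean of a group of 2, light colours are 0 h, dark colours IFNγ/LPS 4 h, blue WT and red Nudt21-cKO. For all 7 genes the 4 h samples lie above the 0 h samples, and Iigp1 at 0 h lies at 0 or 0.0316 TPM.

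Across all genes tested, limma was fitted to log2(TPM + 0.01), and a gene was called when its Benjamini-Hochberg adjusted p was below 0.05 and its fold above 1.5. All 7 members passed the filter on low values (mean coverage of at least 0.5), Iigp1 through its 4 h samples alone. All 6 members with reads in every sample were called higher in WT, with adjusted p (limma) from 9.465e-06 for Tgtp2 to 0.0001002 for Irgm2, and all 6 were called higher in Nudt21-cKO, from 8.012e-06 for Tgtp2 to 0.0001004 for Irgm2. Over all 16284 genes tested, 12.1% were called higher in WT and 12.9% in Nudt21-cKO. The median log2 fold change of the 6 was 5.48 in WT and 5.47 in Nudt21-cKO, against a median over all genes tested of -1.18 and -1.06. The median gene thus lay lower in TPM at 4 h, and on a median-centred scale the median of the 6 was 6.89 in WT and 6.71 in Nudt21-cKO.

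**Figure D2:**
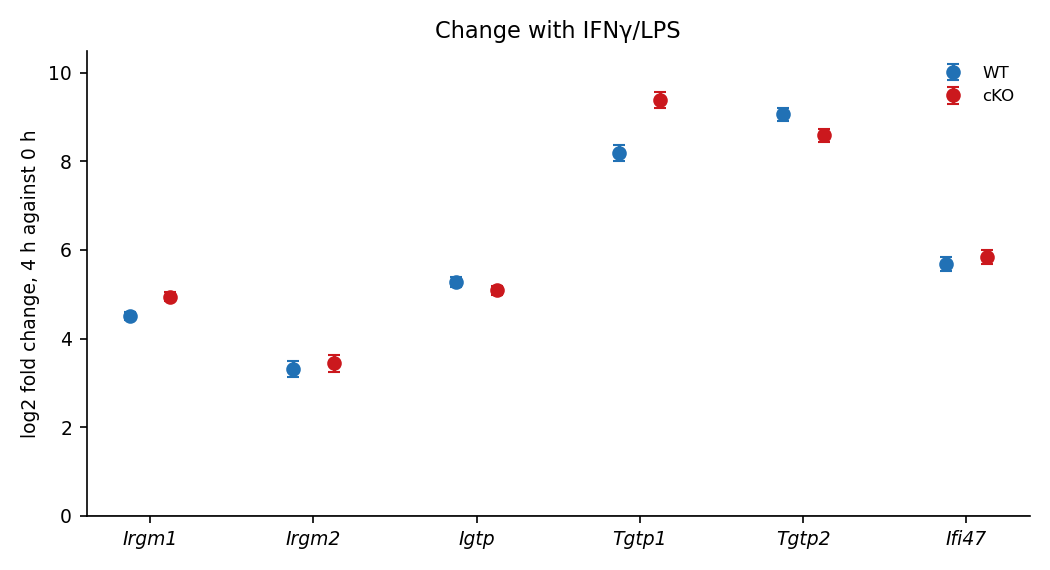
Log2 fold change at 4 h of IFNγ/LPS against 0 h for the 6 members with reads in every sample, in WT (blue) and Nudt21-cKO (red). Points are limma estimates on log2(TPM + 0.01) and error bars are SE, with 2 samples a group. Irgm2 has the smallest values (3.31 and 3.45), and Tgtp1 and Tgtp2 the largest (8.19 to 9.39).

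The make-up of the family changed with stimulation. The 7 genes summed to 64.1 and 65.8 TPM in WT cells at 0 h and to 3272 and 3325 TPM at 4 h, and in Nudt21-cKO cells to 48.7 and 54.7 TPM at 0 h and 3097 and 3125 TPM at 4 h. The regulatory members Irgm1, Irgm2 and Igtp held 86.5% to 88.2% of this sum in the 4 samples at 0 h. At 4 h they held 37.2% to 38.8%, and the 4 effector genes held the larger share in every sample.

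At 0 h the order of mean levels was Irgm1, Irgm2, Igtp, Ifi47, Tgtp2, Tgtp1, Iigp1 in both genotypes, and the only neighbours whose samples overlapped were Tgtp2 and Tgtp1 in WT cells. At 4 h in WT cells Tgtp2 was highest (mean 846 TPM), followed by Irgm1 (660 TPM). Iigp1 (470 TPM), Igtp (441 TPM) and Tgtp1 (439 TPM) came next, and their samples overlapped with their neighbours in this order. Ifi47 (286 TPM) and Irgm2 (157 TPM) were lowest. In Nudt21-cKO cells at 4 h the order was Tgtp2 (736 TPM), Tgtp1 (708 TPM), Irgm1 (639 TPM), Igtp (367 TPM), Iigp1 (323 TPM), Ifi47 (186 TPM) and Irgm2 (152 TPM), with no overlap between neighbours.

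**Figure D3:**
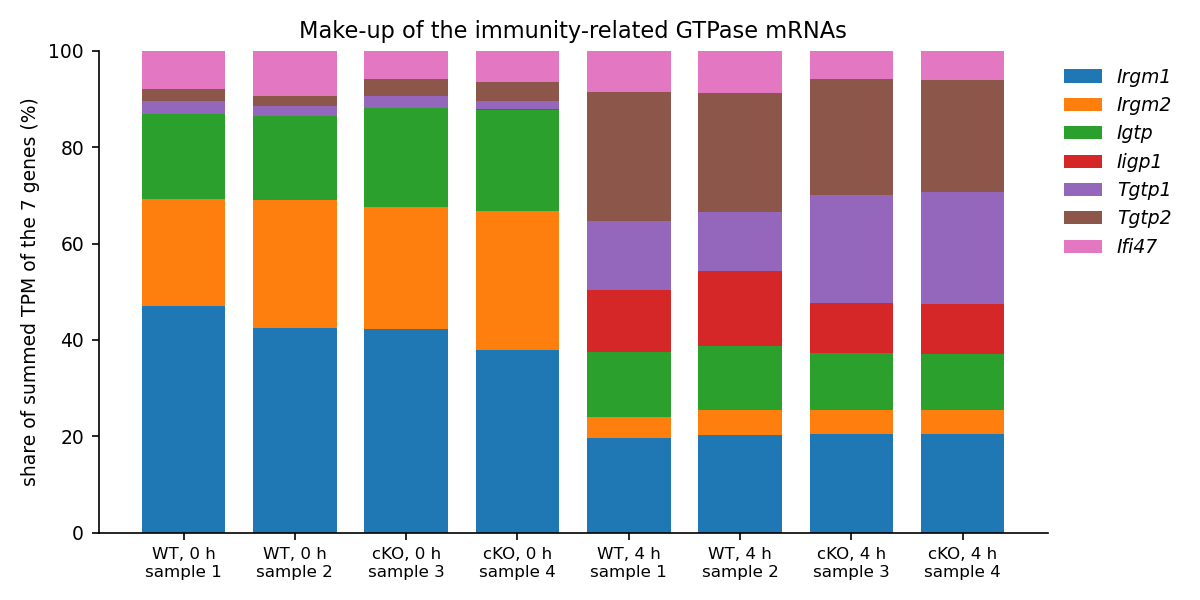
Share of each gene in the summed TPM of the 7 immunity-related GTPases (%), for each of the 8 samples. Irgm1, Irgm2 and Igtp together make up at least 86.5% at 0 h and at most 38.8% at 4 h of IFNγ/LPS, and the Tgtp1 band is wider in the Nudt21-cKO samples at 4 h (22.4% and 23.1%) than in the WT samples (14.3% and 12.4%).

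Nudt21-cKO cells were next compared with WT cells at 0 h, which asks whether loss of Nudt21 altered the basal level of the family. Ifi47 showed the largest difference and was 1.72-fold lower in Nudt21-cKO cells, with 2.89 and 3.58 TPM against 5.05 and 6.11 TPM in WT. Irgm1 was 1.41-fold lower, with 20.6 and 20.7 TPM against 28.0 and 30.1 TPM. Irgm2 and Igtp differed by 1.13-fold and 1.06-fold, and their samples overlapped between genotypes.

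None of the 6 members tested was called at 0 h. The log2 fold change of Ifi47 was -0.79 ± 0.16 (SE, adjusted p = 0.0638, limma), that of Irgm1 was -0.49 ± 0.09 (adjusted p = 0.0590) and that of Tgtp1 was -0.51 ± 0.18 (adjusted p = 0.207). With a pseudocount of 1 in place of 0.01, Ifi47 was called (adjusted p = 0.0152, limma). By the unadjusted p with the same fold, 1 member, Ifi47, would be called lower and 0 higher. Over all genes tested, 4.46% were called at 0 h (2.35% higher and 2.11% lower), and 12.7% by the unadjusted p (6.04% higher and 6.63% lower). The 3 genes whose Nudt21-cKO samples both lay below both WT samples were Irgm1, Tgtp1 and Ifi47, and Tgtp2 was the only member that lay above, while 30.3% of all genes tested lay below and 26.5% above. Iigp1 was not compared at 0 h.

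Some markers of other cells moved with genotype at 0 h. The summed TPM of the 8 neutrophil markers was 1430 to 1543 in WT and 1566 to 1954 in Nudt21-cKO, that of the 5 erythroid and megakaryocyte markers was 174 to 278 in WT and 143 to 157 in Nudt21-cKO, and that of the 8 macrophage markers was 7652 to 8156 in WT and 7432 to 7491 in Nudt21-cKO. Within the macrophage list the genes lay on both sides of WT. At 0 h 3 of the 8 were called lower in Nudt21-cKO (limma, 2.11% of all genes tested), namely Adgre1 (1278 and 1545 TPM in WT, 830 and 806 TPM in Nudt21-cKO), Csf1r (2457 and 2796 TPM, 1577 and 1707 TPM) and Fcgr1 (161 and 151 TPM, 79.2 and 75.4 TPM). Their adjusted p was 0.0491, 0.0468 and 0.0422 (limma), close to the threshold. A fit of the 0 h samples alone called 132 genes against 726, and whether these 3 stayed called in it is not given. Cd68 was not called at 0 h (2889 and 2711 TPM in WT, 4169 and 4136 TPM in Nudt21-cKO). B cell markers summed to 7.95 to 9.10 TPM in WT and 3.83 to 4.41 TPM in Nudt21-cKO, and the 5 mast cell, basophil and eosinophil markers to 19.6 to 24.4 TPM and 12.3 to 15.4 TPM. At 4 h the neutrophil and macrophage sums overlapped between genotypes, but among macrophage markers Adgre1 was called lower (4% of all genes, 797 and 890 TPM in WT, 555 and 500.3 TPM in Nudt21-cKO) and Cd68 higher (8.32% of all genes, 795 and 876 TPM, 1430 and 1605 TPM). The erythroid and megakaryocyte markers summed to 63.0 to 63.7 TPM in WT and 64.4 to 66.5 TPM in Nudt21-cKO at 4 h, B cell markers summed to at most 0.738 TPM, and the mast cell, basophil and eosinophil markers summed to 10.2 to 13.2 TPM in WT and 14.1 to 15.0 TPM in Nudt21-cKO. Their part in the differences between genotypes was not tested.

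At 4 h of IFNγ/LPS, the same comparison asks whether the induced level depended on Nudt21. Tgtp1 was 1.62-fold higher in Nudt21-cKO cells (694 and 722 TPM against 467 and 411 TPM) and Ifi47 was 1.54-fold lower (183 and 188 TPM against 279 and 292 TPM). Iigp1 was 1.45-fold lower (322 and 324 TPM against 425 and 515 TPM), and Igtp was 1.203-fold lower (366 and 367 TPM against 441 TPM in both WT samples). Irgm1 and Irgm2 differed by 1.03-fold each, with overlapping samples. Tgtp2, the near-identical copy of Tgtp1, was 1.149-fold lower, and the summed level of both copies was 1.125-fold higher.

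None of the 7 members passed the adjusted threshold at 4 h. The log2 fold change was 0.69 ± 0.18 (SE, adjusted p = 0.0658, limma) for Tgtp1, -0.62 ± 0.16 (adjusted p = 0.0595) for Ifi47 and -0.27 ± 0.10 (adjusted p = 0.160) for Igtp. For Iigp1 the estimate was -0.53 ± 0.65 (adjusted p = 0.641), where the SE draws on the spread of its 0 h values near 0, and in a fit of the 4 h samples alone its adjusted p was 0.149. With a pseudocount of 1, both Tgtp1 (adjusted p = 0.007245, limma) and Ifi47 (adjusted p = 0.0114, limma) were called. By the unadjusted p with the same fold, Tgtp1 would be called higher and Ifi47 lower. Over all genes tested 12.3% were called at 4 h, 8.32% higher and 4% lower, and 20.5% by the unadjusted p, 13.2% higher and 7.33% lower. The Nudt21-cKO samples lay below both WT samples for Igtp, Iigp1, Tgtp2 and Ifi47 and above them for Tgtp1, against 22.5% of all genes tested below and 33.7% above.

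The 95% intervals show what these samples could resolve. At 4 h the log2 difference between genotypes lay between -0.28 and 0.19 for Irgm1, between -0.52 and 0.45 for Irgm2, and between -0.57 and 0.17 for Tgtp2. It lay between 0.23 and 1.15 for Tgtp1, between -1.02 and -0.23 for Ifi47 and between -0.53 and -0.0005 for Igtp, intervals that are not adjusted for the number of genes. For Iigp1 the interval ran from -2.20 to 1.13, so a difference of either sign was not resolved in this fit. With a pseudocount of 0.1 its adjusted p was 0.0950 and with 1 it was 0.0137 (limma), at the same log2 fold change of -0.53, which is under the 1.5-fold threshold.

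**Figure D4:**
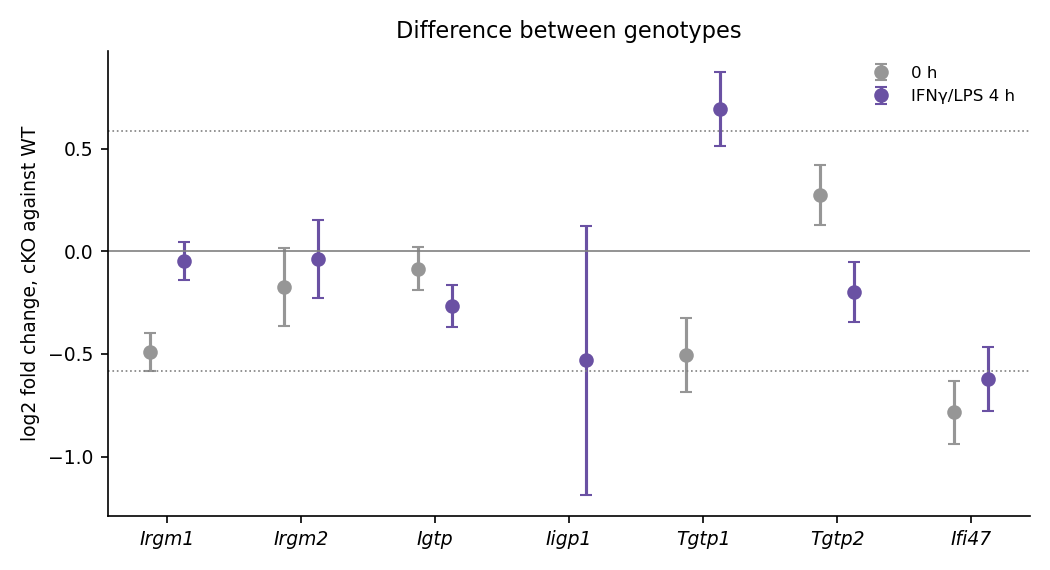
Log2 fold change of Nudt21-cKO against WT at 0 h (grey) and at 4 h of IFNγ/LPS (purple). Points are limma estimates on log2(TPM + 0.01), error bars are SE, 2 samples a group, and dotted lines mark the 1.5-fold threshold. Ifi47 lies below 0 at both times, Tgtp1 and Tgtp2 lie on opposite sides of 0 at 0 h and 4 h, and Iigp1, shown at 4 h only, has an SE of 0.65.

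The division of reads between Tgtp1 and Tgtp2 differed between groups. Tgtp1 held 50.0% and 47.2% of their summed TPM in WT cells at 0 h and 40.4% and 30.8% in Nudt21-cKO cells. Under IFNγ/LPS it held 34.8% and 33.4% in WT and 48.3% and 49.8% in Nudt21-cKO cells, with no overlap at either time. The summed level of both copies differed between genotypes by a log2 fold change of -0.05 ± 0.13 (adjusted p = 0.910, limma) at 0 h and 0.17 ± 0.13 (adjusted p = 0.446) at 4 h. Gm12185, which shares exonic bases with Tgtp1, was 1.49 and 1.72 TPM in WT and 1.04 and 1.19 TPM in Nudt21-cKO cells at 0 h. At 4 h it was 37.0 and 43.4 TPM in WT and 55.9 and 55.4 TPM in Nudt21-cKO cells, so its samples were ordered by genotype as those of Tgtp1 were at both times. Over all genes tested 6.67% showed this order, below WT at 0 h and above it at 4 h, among them Gm5431, which shares no exonic bases with Tgtp1. How the reads of these genes were divided between them was not tested.

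Whether stimulation acted differently in the 2 genotypes was tested as an interaction, the genotype difference at 4 h minus that at 0 h. It was 1.198 ± 0.26 (SE, adjusted p = 0.0926, limma) on the log2 scale for Tgtp1, -0.48 ± 0.21 (adjusted p = 0.287) for Tgtp2 and 0.44 ± 0.13 (adjusted p = 0.159) for Irgm1. For Ifi47 it was 0.16 ± 0.22 (adjusted p = 0.724), for Irgm2 0.13 ± 0.27 (adjusted p = 0.823) and for Igtp -0.18 ± 0.15 (adjusted p = 0.554). For the summed Tgtp copies it was 0.22 ± 0.19 (adjusted p = 0.582). With a pseudocount of 1 the interaction of Tgtp1 was 0.97 and was called (adjusted p = 0.0182, limma). At 0.01 none of the 6 members was called, against 2.38% of all genes tested (1.66% of all genes called larger at 4 h). By the unadjusted p, Tgtp1 alone would be called, larger at 4 h, as were 11.1% of all genes (16.1% in either direction).

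Other genes of the pathway were read from fixed lists. Of 9 further IRG-related genes, 8 were measured and Gm12250 was not analysed here. In each genotype 6 of the 8 were called higher with IFNγ/LPS (over all genes tested 12.1% in WT and 12.9% in Nudt21-cKO) and 1, Irgq, was called lower (53.7% and 51.6%). They ranged from -2.84 (Irgc1, not called) to 9.72 (F830016B08Rik, at 0 in 1 of the WT samples at 0 h) on the log2 scale in WT and from -1.04 (Irgq) to 10.42 (Gm4951, in which 1 of the Nudt21-cKO samples at 0 h was at 0) in Nudt21-cKO. The values of Irgc1 (at most 0.430 TPM in any sample), F830016B08Rik and Gm4951 depend on the pseudocount. Irgq, a divergent family member that is not known as interferon-inducible, was the only one of the 8 called between genotypes, at 4 h (12.3% of all genes tested). It was 2.27 and 2.87 TPM in WT and 6.25 and 5.37 TPM in Nudt21-cKO cells at 4 h, a log2 fold change of 1.18 ± 0.24 (adjusted p = 0.0386, limma). In a fit of the 4 h samples alone this call was lost (adjusted p = 0.0924, limma).

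Guanylate-binding proteins (GBPs), the larger interferon-induced GTPases that also coat pathogen vacuoles, were measured for 10 of 11 genes, and Gbp11 was not analysed here. Gbp2b was listed at 0 in the 4 samples at 0 h, so its fold against 0 h has no defined size. The other 9 were called higher in each genotype (12.1% and 12.9% of all genes tested), with a median log2 fold change of 8.79 in WT and 9.01 in Nudt21-cKO, and the smallest rise was that of Gbp9 (4.51 and 4.95). At 0 h 1 of these 9 was called (4.46% of all genes), Gbp3, lower at 5.36 and 5.41 TPM in Nudt21-cKO against 8.80 and 8.95 TPM in WT (log2 fold change -0.72 ± 0.09, adjusted p = 0.0212, limma). At 4 h 1 of 10 was called (12.3% of all genes), Gbp2b, lower at 38.2 and 41.5 TPM against 64.6 and 81.5 TPM (-0.87 ± 0.14, adjusted p = 0.0224, limma). Its 4 values of 0 at 0 h enter the estimate of spread, and in a fit of the 4 h samples alone the call was lost (adjusted p = 0.111, limma). The median difference of the GBPs between genotypes was -0.34 at 0 h (9 genes, without Gbp2b) and -0.11 at 4 h, beside -0.33 and -0.20 for the IRG members and -0.01 and 0.07 for all genes tested.

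Of the 8 genes of the IFNγ receptor and its JAK-STAT pathway, 5 were called higher in each genotype (12.1% of all genes tested in WT and 12.9% in Nudt21-cKO). Irf1, the transcription factor that binds ISREs, rose most (4.23 in WT and 4.78 in Nudt21-cKO on the log2 scale). Ifngr1, the ligand-binding receptor chain, fell by 2.73 in WT and by 2.47 in Nudt21-cKO, and was the only gene of the list called lower in WT (53.7% of all genes). In Nudt21-cKO 2 were called lower (51.6% of all genes), Ifngr1 and the kinase Jak1, which fell by 0.63. None of the 8 was called between genotypes at 0 h or at 4 h, or in the interaction (4.46%, 12.3% and 2.38% of all genes tested), and by the unadjusted p 1 would be called lower at 0 h (6.63%) and 0 at 4 h (20.5% in either direction). Ifngr1 was 340 and 316 TPM in WT and 195 and 186 TPM in Nudt21-cKO cells at 0 h (log2 fold change -0.78 ± 0.16, adjusted p = 0.0660, limma). Jak2, a receptor-associated kinase, was 456 and 494 TPM in WT and 345 and 314 TPM in Nudt21-cKO cells at 4 h (-0.53 ± 0.10, adjusted p = 0.0345, limma), which is under the 1.5-fold threshold.

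Of the 7 inhibitors of IFNγ signalling, 4 were called higher in each genotype (12.1% and 12.9% of all genes tested), and Pias1 was called lower in WT (-0.60, 53.7% of all genes). Between genotypes 0 were called at 0 h (4.46% of all genes) and 0 at 4 h (12.3%), and by the unadjusted p 1 (Socs1) would be called lower at 0 h (6.63%) and 0 at 4 h (20.5% in either direction). Socs1, the feedback inhibitor of JAK kinases, had the largest genotype difference of this list at 4 h, with 165 and 143 TPM in WT and 215 and 239 TPM in Nudt21-cKO cells (0.56 ± 0.40, adjusted p = 0.407, limma). At 0 h it was 0.931 and 0.415 TPM in WT and 0.254 and 0.180 TPM in Nudt21-cKO cells (-1.50 ± 0.40, adjusted p = 0.122, limma), and its interaction was 2.06 ± 0.57 (adjusted p = 0.141, limma).

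The ATG8 conjugation machinery, known from autophagy, is also needed for IRG proteins to load onto vacuoles rather than host membranes. None of its 11 genes was called higher with stimulation (12.1% and 12.9% of all genes tested), while 8 were called lower in WT and 9 in Nudt21-cKO, beside 53.7% and 51.6% of all genes tested. At 0 h 0 of 11 were called between genotypes (4.46% of all genes), 1 being higher by the unadjusted p (6.04%), and at 4 h 3 of 11 were called higher in Nudt21-cKO and 0 lower, beside 8.32% and 4% of all genes tested. Map1lc3b, which encodes the ATG8 protein LC3B, was 31.0 and 33.5 TPM in WT and 65.3 TPM in both Nudt21-cKO samples at 4 h (1.02 ± 0.10, adjusted p = 0.007682, limma), and it was the only gene of the list called in the interaction (1.07 ± 0.14, adjusted p = 0.0349, limma). With the replicate number as a block that call was lost (adjusted p = 0.192, limma). Atg12, a ubiquitin-like conjugation protein, was higher by 0.89 ± 0.15 and Atg7, the activating enzyme, by 0.73 ± 0.11. Map1lc3b, Atg7 and Atg12 were not called in a fit of the 4 h samples alone (adjusted p = 0.0583, 0.0753 and 0.118, limma). Atg16l1, which directs the conjugation to membranes, had the lowest value of the list at 4 h (-0.30, not called).

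Of 7 ubiquitin ligases and adaptors that are recruited to IRG-coated vacuoles or to other ubiquitin-marked cargo, 3 were called higher (12.1% and 12.9% of all genes tested) and 2 lower (53.7% and 51.6%) with IFNγ/LPS in each genotype. Trim21, a ubiquitin ligase, rose most (3.15 in WT and 3.59 in Nudt21-cKO on the log2 scale). At 0 h none was called between genotypes (4.46% of all genes), also by the unadjusted p (0 of 7, beside 12.7%), and at 4 h 2 of 7 were called higher in Nudt21-cKO (8.32% of all genes tested). Sqstm1, which encodes the adaptor p62, was 946 and 923 TPM in WT and 2127 and 2306 TPM in Nudt21-cKO cells at 4 h (1.24 ± 0.10, adjusted p = 0.005632, limma). Nbr1, a related adaptor, was 7.12 and 8.57 TPM in WT and 13.0 and 14.0 TPM in Nudt21-cKO cells (0.79 ± 0.13, adjusted p = 0.0235, limma). In a fit of the 4 h samples alone, which called 157 genes in all against 2007, none of the genes of these lists called at 4 h stayed called, with adjusted p (limma) from 0.0536 for Sqstm1 to 0.118 for Atg12, and 0.0924 for Irgq.

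**Figure D5:**
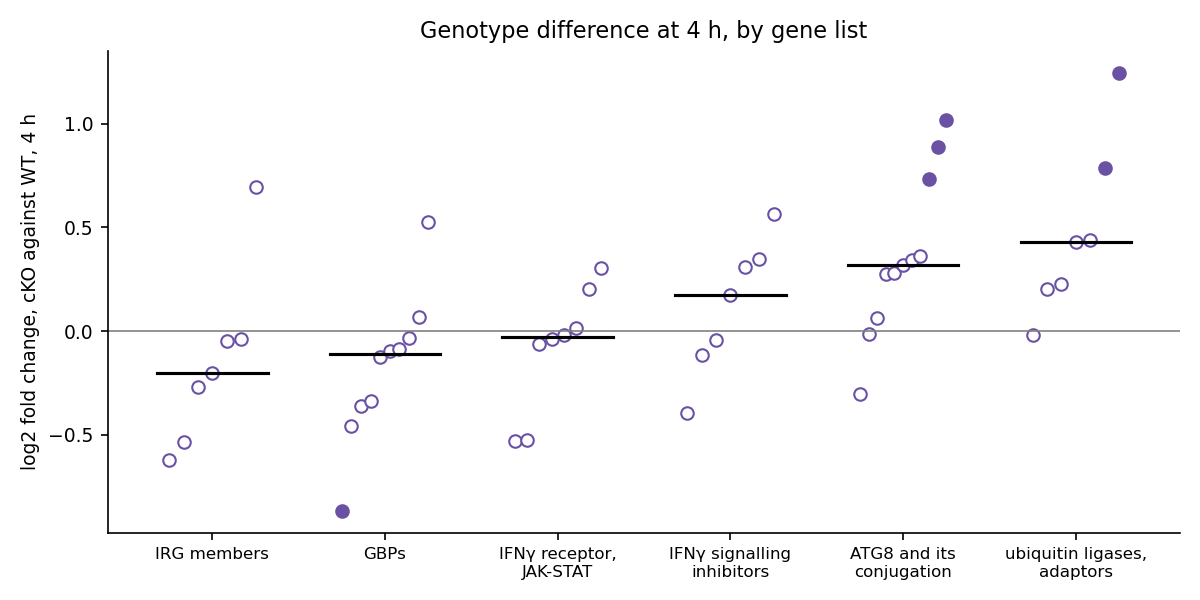
Log2 fold change of Nudt21-cKO against WT at 4 h of IFNγ/LPS for each measured gene of 6 lists. Each circle is 1 gene, filled where it was called (adjusted p below 0.05 and over 1.5-fold), and lines are list medians. No IRG member is filled, Gbp2b is filled below 0, and 3 ATG8 conjugation genes and 2 adaptors are filled above 0. None of these 6 filled genes was called in a fit of the 4 h samples alone.

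The genes whose pattern over the 8 samples was most like the mean pattern of the 7 members were sought among 7582 other genes with a mean of at least 10 TPM, by the root mean square distance of log2(TPM + 0.01) centred on each gene. The 5 nearest were Cnn3 (distance 0.13), which encodes an actin-binding calponin, Usp18 (0.17), which removes the interferon-induced modifier ISG15 from proteins, Hcar2 (0.25), a receptor for hydroxy-carboxylic acids, the nuclear receptor Nr4a3 (0.26) and AW112010 (0.29). The members themselves lay farther from their own mean, at distances of 0.76 (Tgtp2) to 3.74 (Iigp1). The mean pattern includes the values of Iigp1 at 0 h, which are set by the pseudocount of 0.01 TPM.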

How the data were processed

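RNA-seq of 8 BMDM samples was analysed. Per the labels and the methods of the study, the authors aligned paired reads to mm10 (GRCm38) with HISAT2 2.2.1 and estimated abundance with StringTie 2.1.7. The deposited tables hold, for each gene and sample, a signal whose unit the headers do not name; it was read as mean read coverage per base, not scaled between samples; the authors' fold change, p-value and class columns were not used. Whether reads were counted by strand is not given in the sources used here, and the label for treatment is the same in all samples, so that times were taken from the titles.

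Coverage was divided by its sum over all 21080 symbols and multiplied to TPM. Genes with mean coverage of at least 0.5 over the 8 samples (16284) were fitted with limma 3.58.1 (R 4.3.3) on log2(TPM + 0.01), with 4 groups sharing 1 estimate of spread. Fold changes are on the log2(TPM + 0.01) scale, which understates those of low genes. A call required a Benjamini-Hochberg adjusted p below 0.05 and over 1.5-fold. With 2 samples a group, an exact permutation test cannot go below p = 0.333. Each sample pools 2 mice, and p-values measure the spread between such pools. The members and lists were chosen with earlier results of these data known. Genes named outside the 7 members are the extremes of a list, those called between genotypes and the 5 most similar genes. Others were chosen after their values were seen (Jak2, Socs1, Gm12185, Gm5431, Jak1, macrophage and neutrophil markers). Scaling, pseudocount, filter, call rule, variance estimate, samples in the fit and replicate block were varied. Scripts were tested on simulated data. An item withheld for evaluation is not reported here. Promoters are from RefSeq, and transcripts and exons from GENCODE on GRCm38. Figures were drawn with Python 3.11.15 and matplotlib 3.10.9.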

Additional observations from a re-analysis of the deposited data

Results flagged for a closer look

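The genotype difference at 4 h minus that at 0 h was 1.198 for Tgtp1 on the log2 scale. It stood out because both Nudt21-cKO samples lay below both WT samples at 0 h and above them at 4 h. Of all genes tested 6.67% showed this order and 3.33% the opposite order. The interaction had an adjusted p of 0.0926 in limma, from 0.0993 to 0.249 when any 1 sample was left out and from 0.005091 (unadjusted) to 0.582 under the other alternatives.

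The same difference was -0.48 for Tgtp2, whose Nudt21-cKO samples lay above the WT samples at 0 h and below them at 4 h (adjusted p = 0.287, limma). For the summed level of these near-identical copies it was 0.22 (adjusted p = 0.582, limma).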

How the results depend on the processing

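The 6 members with reads in every sample stayed called higher with IFNγ/LPS in both genotypes under every alternative run. Their median log2 rise was 6.89 in WT and 6.71 in Nudt21-cKO with median-centring, 6.02 and 6.01 with quantile normalization, and 5.30 and 5.22 with a pseudocount of 1.

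Between genotypes, calls depended on the setting. At 0 h, 1 member (Ifi47) was called lower with a pseudocount of 0.1 or 1, coverage of at least 5, the unadjusted p or an intensity trend. At 4 h, 1 member (Ifi47) was called lower under these same settings and with median-centring, and 1 (Tgtp1) was called higher under these same settings and on the deposited scale (0.90, adjusted p = 0.0251, limma). In the interaction 1 member (Tgtp1) was called with a pseudocount of 1, the unadjusted p or an intensity trend. The causes were not tested. Genes called over the whole table at 0 h were 726, against 1229 with quantile normalization, 1259 with a pseudocount of 1, 2064 by the unadjusted p and 132 with only the 4 samples compared. They were 1011 with a pseudocount of 0.1, 792 with coverage of at least 5 and 1017 with an intensity trend. At 4 h they were 2007, against 3096 on the deposited scale, 3345 by the unadjusted p and 157 with only the 4 samples. They were 2142 with median-centring, 2185 with a pseudocount of 0.1 and 1934 with a pseudocount of 1. They were 2277 with coverage of at least 5 and 2411 with an intensity trend. In the interaction they were 388, against 1257 with a pseudocount of 1, 2615 by the unadjusted p and 927 with an intensity trend.

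Signs turned for small values. On the deposited scale, on which the median genotype difference over all genes at 4 h was 0.27 (0.07 in TPM), the genotype difference became 0.17 for Irgm1, 0.17 for Irgm2, 0.011 for Tgtp2 and 0.011 for the members' median at 4 h, and 0.038 for Igtp at 0 h. With median-centring the interaction became -0.042 for Irgm2, -0.012 for Ifi47 and -0.027 for the members' median. With Tgtp1 and Tgtp2 summed, the value set against Tgtp2 became -0.046 at 0 h, 0.17 at 4 h and 0.22 in the interaction. Leaving out 1 sample called 0 members between genotypes, and all genes called ranged from 232 to 909 at 0 h, from 332 to 2499 at 4 h and from 146 to 876 in the interaction, lowest without Nudt21-cKO sample 3 at 4 h (232) or sample 4 at 4 h (332 and 146). Irgm2 ranged from -0.36 to 0.0095 at 0 h, -0.18 to 0.10 at 4 h and -0.049 to 0.32 in the interaction, Igtp from -0.18 to 0.014 at 0 h, and the members' median interaction from -0.019 to 0.32.

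With the replicate number as a replicate block, all 6 members stayed called for stimulation, and the interaction called 0 genes in limma (2531 by the unadjusted p). Same-numbered samples deviated together with a correlation of 0.084 in WT and 0.058 in Nudt21-cKO over 12974 genes, and with 2 pairs a genotype this does not settle whether the same pools were used at both times. No count test was made on these coverage values.

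Limits: 2 pooled samples a group, reads shared between Tgtp1 and Tgtp2, and coverage near 0 for Iigp1 at 0 h bound what these data resolve.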
